A study of Mus musculus with 4 samples.

Results

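The chemokines described here are 9 small secreted or membrane-tethered proteins of the CXC and CX3C families: Cxcl1, Cxcl2, Cxcl9, Cxcl10, Cxcl12, Cxcl13, Cxcl14, Cxcl16 and Cx3cl1. They were taken by gene symbol, and each matched 1 row among the 33456 genes of the deposited tables. The data were droplet single-cell RNA-seq (10x Genomics 3′ chemistry) of dorsal root ganglia (DRG), the clusters of sensory neuron cell bodies beside the spinal cord, from C57BL/6 mice aged 8 to 12 weeks, left uninjured (control) or taken 3 days after a crush of the sciatic nerve (injury). Each group had 2 libraries, each made from cells pooled over several female mice, and both groups were of that strain with no allele or agent named beyond it. Ganglia were digested with papain and collagenase and sorted for live cells before loading, so every library carried that handling. The labels name ganglion L4 and the methods L4 and L5.

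Chemokines are chemoattractants that bind receptors on the surface of white blood cells, and their names follow the spacing of the first cysteines. Cxcl1 and Cxcl2 act through Cxcr2 and draw neutrophils, Cxcl9 and Cxcl10 are interferon-induced ligands of Cxcr3 on T cells, Cxcl12 signals through Cxcr4 and is also bound by Ackr3, and Cxcl13 signals through Cxcr5 on B cells. Cxcl16 and Cx3cl1 are made as transmembrane proteins that metalloproteases can shed, and they bind Cxcr6 and Cx3cr1. In sensory ganglia Cx3cr1 marks resident macrophages, and nerve injury is known to increase macrophage numbers there.

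The 4 libraries held 6975 barcodes, between 1294 and 2509 each, with 5585909 to 11210875 unique molecular identifiers (UMIs, each standing for 1 captured transcript molecule). Of these, 6354 barcodes had at least 600 UMIs, at least 500 genes and under 10% mitochondrial UMIs and were used as cells. Cell types were assigned by lists of 8 marker genes, none of them a chemokine or a receptor of the 9 genes, and 5022 cells (79.0%) received a type. Libraries are always given in the order control replicate 1, control replicate 2, injury replicate 1, injury replicate 2. In that order there were 250, 76, 493 and 199 macrophage-gated cells, 286, 370, 334 and 265 fibroblasts, 57, 169, 119 and 98 endothelial cells, and 40, 370, 460 and 222 satellite glial cells (SGC, the glia that wrap the neuron bodies). T cells were uneven, at 51, 3, 5 and 0. Levels are the UMIs of a gene per 1000000 UMIs of the type in a library (CPM). At most 6 barcode sequences were shared by any pair of libraries.

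Cxcl1 and Cxcl2 lie 10777 bases apart on chromosome 5, and Cxcl9 and Cxcl10 18558 bases apart on the same chromosome. The 250 bases before their transcription starts are shown because these neighbours were found in partly different cell types. They are read 5′ to 3′ on the gene's own strand from RefSeq (GRCm38.p6). Capitals mark matches on either strand to GGG followed after any 3 bases by TTCC, a pattern of the kind that NF-kB proteins bind, and to GAAA followed after any 2 bases by GAAA, a pattern of interferon-stimulated response elements.
Cxcl1, chr5:90890995-90891244, plus strand: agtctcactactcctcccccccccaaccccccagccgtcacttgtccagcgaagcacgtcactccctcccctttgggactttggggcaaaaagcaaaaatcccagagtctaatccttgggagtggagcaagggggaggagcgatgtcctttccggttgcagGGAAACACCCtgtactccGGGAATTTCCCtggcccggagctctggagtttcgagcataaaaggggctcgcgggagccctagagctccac
Cxcl2, chr5:90903649-90903898, plus strand: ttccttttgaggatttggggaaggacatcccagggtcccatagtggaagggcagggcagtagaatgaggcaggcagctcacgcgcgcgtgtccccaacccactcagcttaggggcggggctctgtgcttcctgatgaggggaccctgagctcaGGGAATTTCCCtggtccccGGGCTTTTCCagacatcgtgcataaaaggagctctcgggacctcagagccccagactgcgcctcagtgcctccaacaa
Cxcl9, chr5:92328080-92328329, minus strand: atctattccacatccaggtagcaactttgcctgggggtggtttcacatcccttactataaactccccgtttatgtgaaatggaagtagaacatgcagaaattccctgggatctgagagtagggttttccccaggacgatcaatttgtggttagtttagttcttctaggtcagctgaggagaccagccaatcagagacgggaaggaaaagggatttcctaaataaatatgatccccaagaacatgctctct
Cxcl10, chr5:92348890-92349139, minus strand: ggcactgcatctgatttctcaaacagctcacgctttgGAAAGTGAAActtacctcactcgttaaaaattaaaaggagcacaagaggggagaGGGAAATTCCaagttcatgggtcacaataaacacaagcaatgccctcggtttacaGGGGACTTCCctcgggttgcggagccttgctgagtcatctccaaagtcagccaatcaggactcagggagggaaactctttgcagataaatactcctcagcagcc
The NF-kB pattern was in 3 of the 8 members with an entry in the table (Cxcl1, Cxcl2 and Cxcl10) and in 4.65% of all 32851 windows of that length. The interferon pattern was in 2 of the 8 (Cxcl10 and Cxcl14) and in 2.98% of all windows. The matches in Cxcl1 and Cxcl2 overlap themselves where the pattern reads on both strands. These are letter matches and say nothing of binding in these cells.

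Cxcl2 was a macrophage transcript in these ganglia. Macrophage-gated cells held 93.4% of its 16192 UMIs, at 3387, 2498, 3704 and 1636 CPM in the 4 libraries. A UMI was found in 628 of 1018 macrophages (61.7%, exact 95% interval 58.6 to 64.7%), against 1.74% of SGC, with median depths of 4092.5 and 4283 UMIs per cell. Over libraries with at least 10 cells of a type, neutrophil-gated cells came next, at 747, 112, 1047 and 68.2 CPM. Monocytes had 68.3 CPM in control replicate 1 and 136 and 25.0 CPM in injury. The 5 monocytes of control replicate 2 reached 3667 CPM from 75 UMIs. Every macrophage library (mean 2806 ± 933 CPM, SD, n = 4) lay above every neutrophil library. Neutrophils (493 ± 482 CPM) were above fibroblasts (56.8 ± 35.3 CPM) in each of the 4 libraries, but the highest fibroblast library (103 CPM) stood above the lowest neutrophil library. Enrichment was measured against the mean log2 level of the other types, with the library as a block. Types with few or no UMIs pull that mean down. Cxcl2 was higher in macrophages by a log2 value of 7.68 ± 0.23 (SE, edgeR adjusted p = 1.44e-29) and in neutrophils by 5.07 ± 0.32 (adjusted p = 1.17e-17). It was lower in SGC by -2.69 ± 0.68 and in neurons by -2.76 ± 0.68 on the same scale. Macrophages were also split by the markers Mrc1 and Cd163 of resident cells, a split chosen after the values had been seen. Cells with a UMI of either had 3182, 2874, 4166 and 1550 CPM, and cells with neither 3769, 2016, 2857 and 2113 CPM, so the order of these cells differed between libraries.

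Cxcl1, the neighbouring gene, was found mostly in fibroblasts and mural cells, the contractile cells of vessel walls. Fibroblast-gated cells held 72.9% of its 4222 UMIs and pericytes 11.5%. Its fibroblast level was 840, 219, 912 and 291 CPM and its pericyte level 901, 300.3 and 1458 CPM in the 3 libraries with at least 10 pericytes. In fibroblasts the library numbered 1 of each group was the higher one, and control and injury overlapped. In pericytes control replicate 1 was above control replicate 2, and the 1 injury library was above both. The summed level of 8 immediate early and heat shock genes in fibroblasts was also higher in the libraries numbered 1 (20954 and 12938 CPM against 7338 and 7637 CPM). The makeup of the fibroblasts differed too: a connective tissue group, described below, held 221, 162, 223 and 144 of the 286, 370, 334 and 265 cells. In that group Cxcl1 was at 1087, 506, 1275 and 514 CPM. The part of either in the Cxcl1 level was not tested. Smooth muscle cells had 199.6, 30.3, 287 and 62.6 CPM, with 26 of the 33 UMIs of control replicate 1 in 1 cell. The enrichment was 5.77 ± 0.27 in fibroblasts (log2, edgeR adjusted p = 7.01e-22), 6.00 ± 0.34 in pericytes (adjusted p = 2.68e-18) and 3.55 ± 0.49 in smooth muscle (adjusted p = 1.29e-07). Pericytes and fibroblasts, the first and second in level, overlapped over the libraries (887 ± 579 CPM, n = 3, and 565 ± 361 CPM, n = 4). Within each of the 3 libraries with at least 10 pericytes the pericyte level was the higher, a difference that was not tested.

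Some cells carried both transcripts. Of the 51 macrophages with a Cxcl1 UMI, 45 (88.2%) also had Cxcl2, whereas 7.17% of the Cxcl2-positive macrophages had Cxcl1. Of the 75 fibroblasts with a Cxcl2 UMI, 45 (60.0%) also had Cxcl1. Macrophage-gated cells had Cxcl1 at 26.0, 18.1, 54.2 and 25.6 CPM, and 11 of the 28 UMIs of injury replicate 2 came from 1 cell. The receptor gene Cxcr2 was at 90.5, 9.31, 67.1 and 31.0 CPM in neutrophils and at 0 UMIs in macrophages, fibroblasts and pericytes. Cxcr1 had 0 UMIs in 6354 cells, which allows a share of cells with a UMI of up to 0.0472%.

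**Figure D1:**
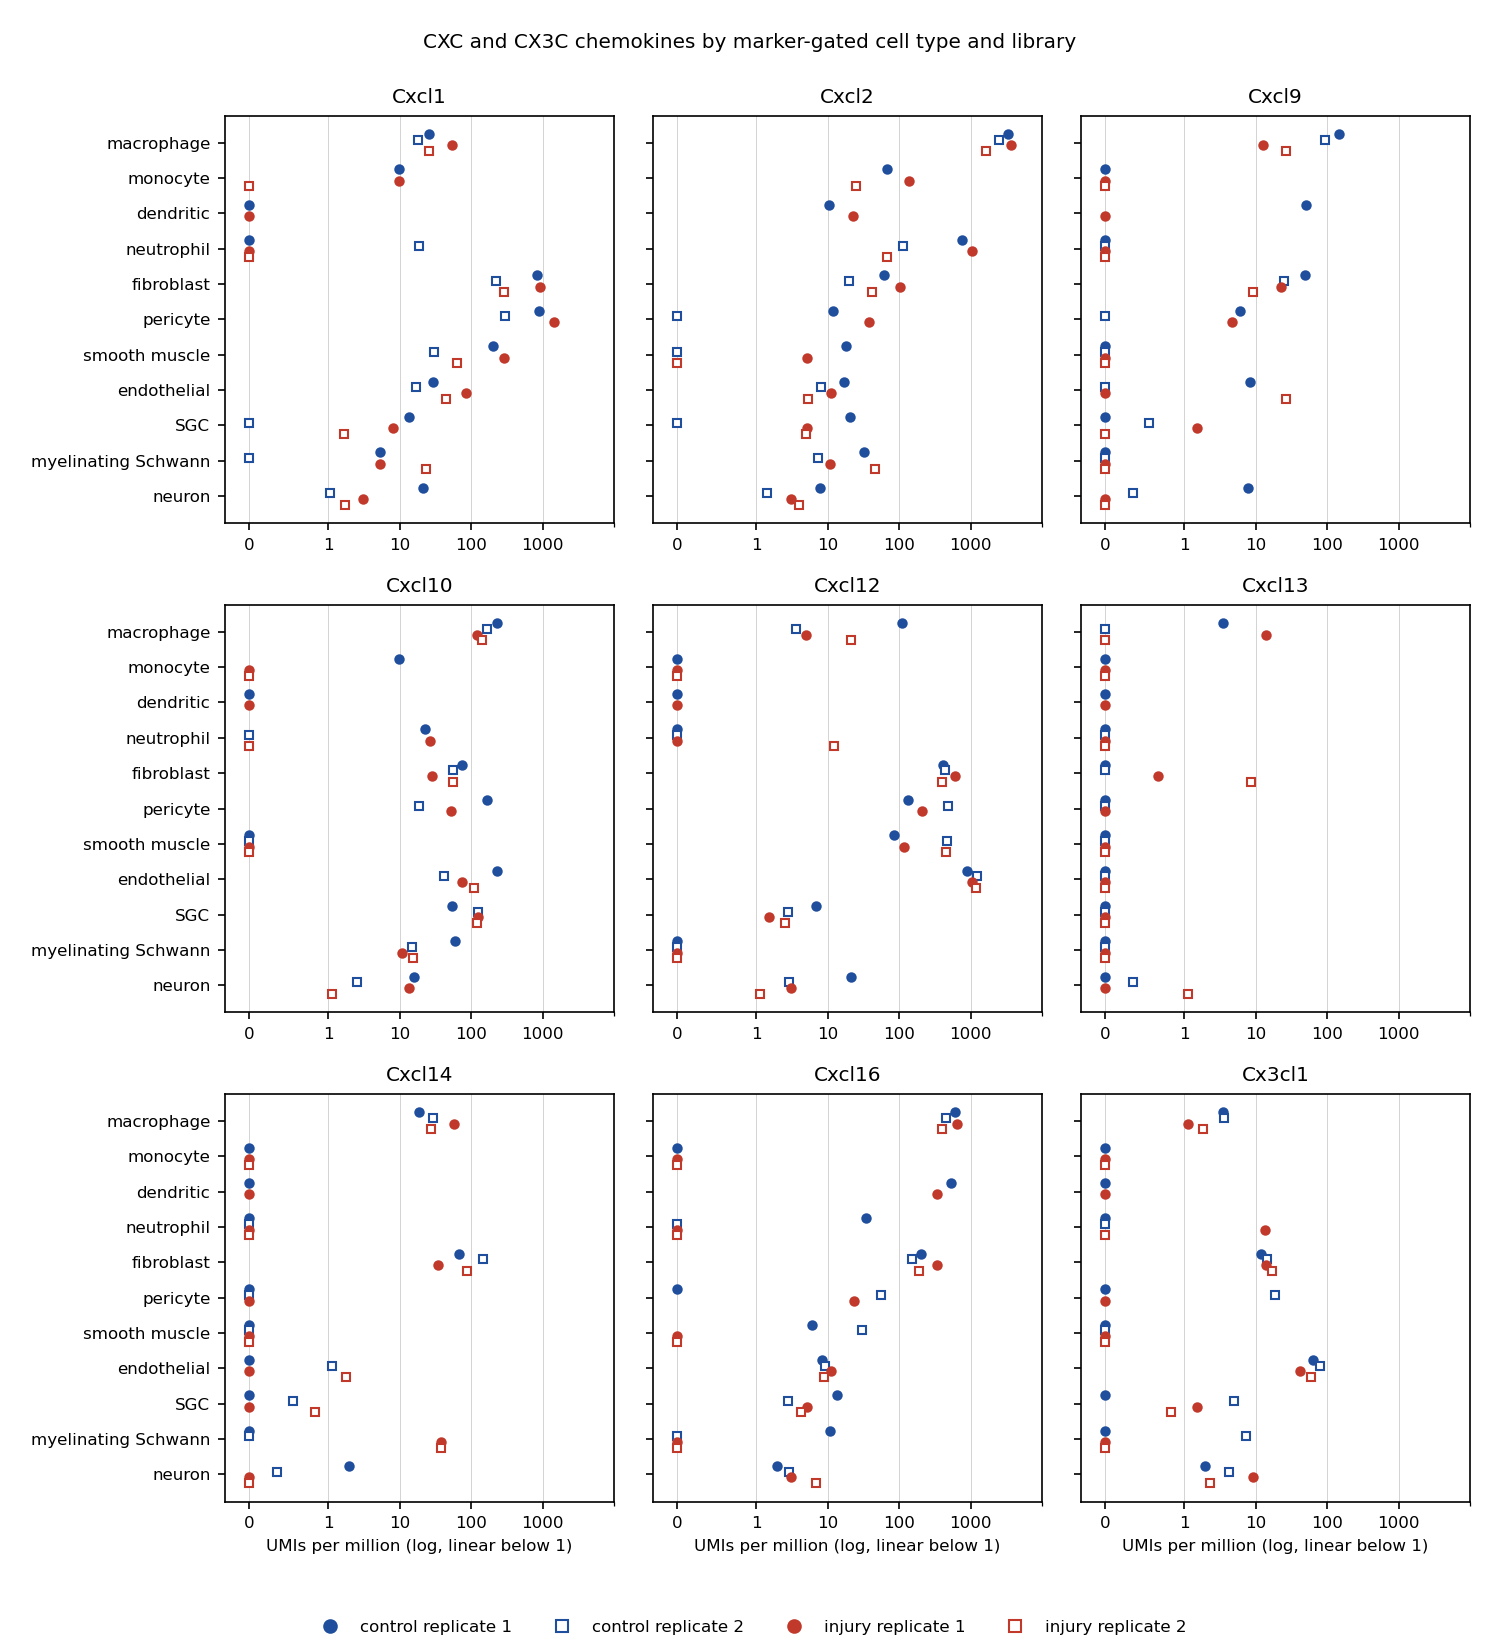
Level of each chemokine by marker-gated cell type (rows) in CPM (x axis, log scale, linear below 1). Filled circles are the libraries numbered 1 and open squares those numbered 2, blue for control and red for injury, shown for libraries with at least 10 cells of the type. Cxcl2 stands between 1636 and 3704 CPM in macrophages, Cxcl1 peaks in fibroblasts and pericytes, and Cxcl12 peaks in endothelial cells.

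Cxcl12, which holds Cxcr4-bearing cells in their niche in many tissues, was an endothelial and fibroblast transcript, and these types together held 84.1% of its 5962 UMIs. Endothelial cells had 906, 1214, 1056 and 1181 CPM (1089 ± 140 CPM, n = 4). A UMI was found in 369 of 443 endothelial cells (83.3%, interval 79.5 to 86.6%), against 0.824% of SGC, with median depths of 4302 and 4283 UMIs per cell. Fibroblasts had 413, 440, 605 and 400.2 CPM, below every endothelial library. Smooth muscle (84.7, 470, 118 and 459 CPM) and pericytes (132, 488 and 208 CPM) overlapped each other and, in their higher libraries, the fibroblasts. In those mural libraries 1 cell carried most UMIs: 18 of 26 in pericytes of control replicate 2, 21 of 31 and 17 of 22 in smooth muscle of control and injury replicate 2. Enrichment was called in endothelial cells (log2 7.47 ± 0.46, edgeR adjusted p = 1.87e-16), fibroblasts (6.35 ± 0.50, adjusted p = 2.29e-13), smooth muscle (4.97 ± 0.83, adjusted p = 9.33e-06) and pericytes (4.94 ± 0.86, adjusted p = 2.02e-05). Over 12 alternatives the smooth muscle value ran from 3.08 to 5.21 with a highest edgeR adjusted p of 0.103, so that call was not always kept.

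Its receptor gene Cxcr4 was at 46.1, 14.4, 35.6 and 10.98 CPM in macrophages and at 81.9, 17.3, 17.9 and 11.8 CPM in SGC, and both types were enriched for it (log2 2.80 ± 0.39 and 2.46 ± 0.42). The scavenging receptor gene Ackr3 was at 93.4, 22.8, 56.7 and 11.6 CPM in fibroblasts (log2 enrichment 4.92 ± 0.49). Endothelial cells, which had the highest Cxcl12 of the gated types, had Cxcr4 at 4.98 ± 2.71 CPM (n = 4) and Ackr3 at 0 to 4.44 CPM.

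Cx3cl1, the membrane-tethered fractalkine, was lower in count, with 292 UMIs in all. Endothelial cells held 46.9% of them, at 63.2, 78.9, 42.2 and 60.1 CPM, and fibroblasts 27.1%, at 11.8, 14.3, 14.0 and 17.0 CPM. The libraries of these types did not overlap. Enrichment was 5.63 ± 0.50 in endothelial cells (log2, edgeR adjusted p = 6.57e-12) and 3.602 ± 0.61 in fibroblasts (adjusted p = 6.97e-06). Neurons, often named as its source, had 1.96, 4.29, 9.07 and 2.26 CPM. A UMI was seen in 8.37% of neurons against 23.7% of endothelial cells, with median depths of 19664 and 4302 UMIs. With each cell thinned to 1000 UMIs, and cells under 1000 UMIs left out, these shares were 0.430% and 6.26%. The share in macrophages, which carry its receptor, was 0.219% after thinning. Cx3cr1 itself was at 397.0, 397.1, 494 and 468 CPM in macrophages (log2 enrichment 8.07 ± 0.24).

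Cxcl16, the other tethered chemokine, was shared by macrophages (61.4% of 4512 UMIs) and fibroblasts (27.2%). Macrophages had 599, 458, 647 and 394 CPM, and 777 of 1018 (76.3%) had a UMI, against 1.92% of SGC. Fibroblasts had 204, 151, 339 and 188 CPM, below every macrophage library. Dendritic cells had 535 CPM in control replicate 1 and 340 CPM in injury replicate 1, the libraries with at least 10 such cells, and overlapped the macrophage libraries. Enrichment was 5.80 ± 0.22 in macrophages, 5.26 ± 0.42 in dendritic cells and 4.34 ± 0.25 in fibroblasts (log2, edgeR adjusted p = 5.64e-25, 2.79e-13 and 7.38e-19). Macrophages without a Mrc1 or Cd163 UMI had the higher level in each library (834, 560, 766 and 543 CPM against 472, 379, 582 and 367 CPM). That split was chosen after the values had been seen. Its receptor gene Cxcr6 was at 755 CPM in the 51 T cells of control replicate 1, and macrophages had 0.284 ± 0.569 CPM (n = 4).

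Cxcl10 was enriched in 5 types, and the macrophage and SGC gates together held 59.9% of its 2209 UMIs. Macrophages had 228, 166, 121 and 140 CPM. SGC had 54.6, 123, 125 and 119 CPM, where the first value rests on 40 cells and 8 UMIs. Endothelial cells had 227, 42.3, 73.3 and 109.6 CPM, and 40 of the 54 UMIs of control replicate 1 were in 1 cell. Macrophages (164 ± 46.8 CPM), endothelial cells (113 ± 81.0 CPM) and SGC (105 ± 34.0 CPM) overlapped in level. Enrichment was 4.36 ± 0.39 in macrophages, 3.99 ± 0.42 in SGC and 3.34 ± 0.50 in endothelial cells (log2, edgeR adjusted p = 2.03e-12, 1.41e-10 and 5.83e-07), and smaller values in pericytes (2.93 ± 0.74) and fibroblasts (2.55 ± 0.54) passed in these cells but not with the looser gate (1.41 and 1.59) or with Leiden clusters (1.20 and 1.34). Without control replicate 1 the pericyte call was lost (2.61), and without control or injury replicate 2 the fibroblast call was lost (1.86 and 1.83). The mean fibroblast level (53.4 CPM) was below the mean over all cells (65.8 CPM), so that call does not mean a level above the ganglion average. A UMI was in 18.3% of SGC (interval 16.1 to 20.7%), and in 3.96% of neurons, a type with a median of 19664 UMIs per cell. After thinning the shares were 7.69% in SGC, 7.15% in macrophages and 0.374% in neurons. Cxcl10 was the single chemokine of the 8 tested that was enriched in SGC, where 13.5% of all 7254 genes were called higher.

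Cxcl9, the other interferon-induced ligand, was rare, with 496 UMIs in 88 cells. Macrophages held 43.1% of them and fibroblasts 28.6%. Fibroblasts had 48.8, 24.7, 22.7 and 9.25 CPM from 24 cells, and 27 of the 34 UMIs of injury replicate 1 were in 1 cell. Enrichment was 5.85 ± 0.71 in macrophages (log2, edgeR adjusted p = 4.43e-08) and 4.63 ± 0.83 in fibroblasts (adjusted p = 2.57e-05). The high value in pericytes of injury replicate 2 (1038 CPM) was 1 cell of 5 with 28 UMIs, and all 15 endothelial UMIs of that library were also in 1 cell. The receptor gene Cxcr3 was at 560 CPM in the T cells of control replicate 1 and at 4.59 ± 3.602 CPM in macrophages.

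Cxcl14, an orphan chemokine known from connective tissue and epithelium, had 793 UMIs, 59.1% in fibroblasts (68.2, 146, 34.0 and 87.1 CPM) and 26.0% in macrophages (18.9, 28.9, 57.6 and 27.5 CPM). The types overlapped in level. In macrophages it was spread thinly, at no more than 6 UMIs in any of the 118 positive cells, which were 11.6% of macrophages before and 3.09% after thinning. Enrichment was 6.47 ± 0.50 in fibroblasts and 5.30 ± 0.60 in macrophages (log2, edgeR adjusted p = 8.93e-13 and 8.95e-09). A further call, in myelinating Schwann cells (4.09 ± 1.08, adjusted p = 0.00353), rested on 7 UMIs in 1 cell of injury replicate 1 and 5 in 1 cell of injury replicate 2. It was lost without injury replicate 2 (3.43, adjusted p = 0.0579). The control Schwann libraries had no UMI, which allows levels up to 16.1 and 22.0 CPM.

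Cxcl13, the B cell attractant, had 64 UMIs in 11 cells and was too low to be tested by type. Of these, 36 UMIs were in 1 macrophage of injury replicate 1 with all 8 macrophage markers. No order of types was read from it.

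Over all types, 24 of 104 tests of a chemokine in a type were called enriched, at an adjusted p under 0.05 and a fold over 4. The fold is over the mean log2 level of the other types, so a called type can lie below the level over all cells. By type the counts were 7 of 8 chemokines in fibroblasts, where 14.3% of all genes were called, 5 in macrophages (11.1% of all genes), 3 in endothelial cells and 3 in pericytes (12.1% each), 2 in smooth muscle (11.6%) and 1 each in SGC, dendritic cells (7.71%), neutrophils (9.88%) and myelinating Schwann cells (10.9%). None was called in neurons, where 17.3% of all genes were, nor in monocytes (8.19%), nonmyelinating glia (6.11%) or erythroid cells (5.75%).

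Fibroblast-gated cells fell into groups with different chemokines when split by separate lists of connective tissue and mesenchymal genes, 750 cells against 459. The connective tissue list includes the CC chemokine gene Ccl11, which is not a member of the set described here. The split is therefore not fully independent of chemokine expression. Cxcl1 was at 1087, 506, 1275 and 514 CPM in the connective tissue group and at 77.4, 6.96, 67.0 and 7.44 CPM in the mesenchymal group. A Cxcl1 UMI was in 49.2% of the former (interval 45.6 to 52.8%) and 4.14% of the latter (2.51 to 6.39%), with 0.641% of SGC as the background, and these became 31.9%, 1.86% and 0.194% after thinning. Cxcl10 went the same way, at 96.7, 114, 35.7 and 90.1 CPM against 10.6, 9.28, 12.4 and 5.58 CPM. So did Cxcl16, at 233, 219, 428 and 275 CPM against 106, 104, 142 and 78.1 CPM. In every library these genes were higher in the connective tissue group.

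Cxcl14 went the other way, at 6.75, 127, 19.3 and 22.2 CPM in the connective tissue group and 264, 161, 54.6 and 179 CPM in the mesenchymal group, higher in the latter in each of the 4 libraries. Cxcl12 overlapped between the groups, higher in the connective tissue group in all libraries but control replicate 2 (479, 263, 584 and 402 CPM against 162, 412, 507 and 353 CPM). The 46 fibroblasts that neither list favoured had Cxcl12 at 1290, 3550, 1645 and 1024 CPM from 5, 12, 20 and 9 cells, above the endothelial level in all libraries but injury replicate 2. Ackr3 was at 201, 35.9, 144 and 22.3 CPM in the mesenchymal group. Differences between these groups were not tested.

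**Figure D2:**
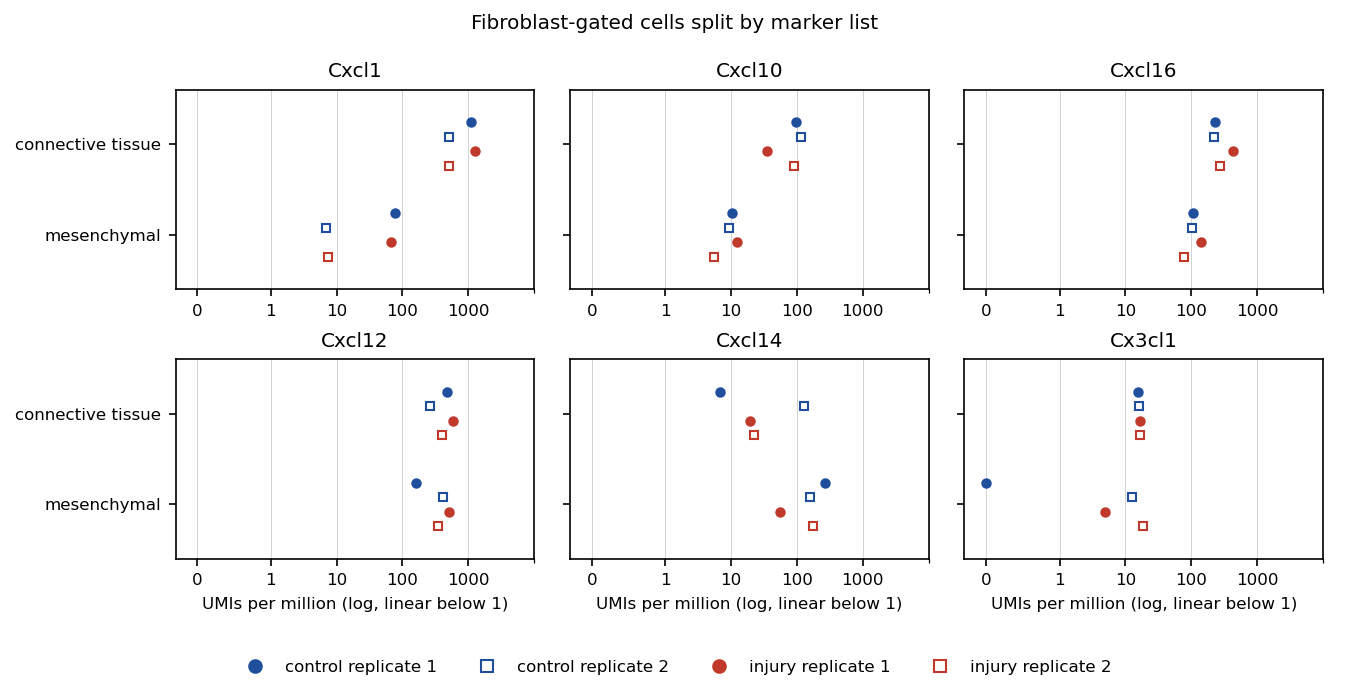
Levels of 6 chemokines in fibroblast-gated cells split by marker list (rows), in CPM (x axis, log scale, linear below 1), with symbols as in the plot of levels by cell type. Cxcl1, Cxcl10 and Cxcl16 are higher in the connective tissue group in all 4 libraries, Cxcl14 is higher in the mesenchymal group, and Cxcl12 overlaps.

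Injury was compared with control in each type with at least 10 cells in every library. No chemokine passed an adjusted p under 0.05 with a log2 fold change of 2 or more, in either direction, in 25 tests over 7 types. In the other type fitted, myelinating Schwann cells, no chemokine passed the filter on low counts. The background was low as well: 0% of all genes tested were called in macrophages, SGC, endothelial cells, neutrophils, smooth muscle and myelinating Schwann cells, 0.011% in fibroblasts and 0.148% in neurons. In macrophages 572 of 7116 genes had an unadjusted p under 0.05 and the smallest adjusted p was 0.102. A simulation with the same design recovered 97.5% of 200 macrophage genes changed 8-fold, among the 7116 genes tested, and called 12 unchanged genes. All 200 were changed at once, which eases the adjustment of p over many genes. That share therefore does not tell how often a lone changed gene would be called. Over all cells of a library, 0 of 9 chemokines and 0% of 14302 genes were called. In such sums fewer cells of a type and less RNA per cell cannot be told apart.

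Cxcl9 in macrophages had the lowest p of the 25 tests. It was at 148 and 93.9 CPM in control and 12.9 and 26.5 CPM in injury, without overlap. A UMI was in 17 of 250 and 6 of 76 control macrophages against 6 of 493 and 2 of 199 after injury. The log2 fold change was -2.89 ± 0.41 (SE, edgeR adjusted p = 0.197). DESeq2 on the same counts gave -2.87 (adjusted p = 0.000417), with 5 genes called higher and 7 lower in all. Over 13 alternatives the value ran from -3.31 to -2.40 and the adjusted p from 4.15e-11 to 0.400, and 7 of them, among these each fit without 1 library, called it lower. Few cells carried the value: 21 of the 34 UMIs of injury replicate 1 and 28 of the 29 of injury replicate 2 were in 1 cell each, as were 14 of 26 in control replicate 2. Without the top cell of each library the levels were 119 and 44.2 CPM in control against 4.94 and 0.919 CPM in injury. In macrophages with a Mrc1 or Cd163 UMI, Cxcl9 was at 79.9 and 51.4 CPM in control and at 5.86 and 0 CPM in injury. In the others it was at 274, 148, 25.8 and 173 CPM, where the groups overlapped. The last of these values was 29 UMIs in 2 of 33 cells, with 28 of the UMIs in 1 cell.

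The summed level of Cxcl10 was also lower in macrophages of both injury libraries, by a log2 value of -0.78 ± 0.27 (edgeR adjusted p = 0.535). The groups did not overlap in that level. They overlapped in the share of macrophages with a Cxcl10 UMI (10.8, 22.4, 13.6 and 23.1%). After thinning these shares were 7.07, 10.7, 5.75 and 9.32%, again with overlap. Macrophages with a Mrc1 or Cd163 UMI had Cxcl10 at 238, 154, 147 and 120 CPM, without overlap. Those with neither had 209, 181, 72.0 and 251 CPM, with injury replicate 2 above both control libraries. Over all macrophages, 8 other listed interferon response genes, all tested, changed by a median log2 value of -1.43, against -0.0094 over all genes. None of the 8 was called. The list was chosen with earlier results of these data known, and its genes were not tested as a set. In macrophages 572 of all 7116 genes tested had an unadjusted p under 0.05, and so did 6 of the 8. Among these were Gbp2 (-1.73 ± 0.33), a guanylate-binding protein, Isg15 (-1.45 ± 0.29), a ubiquitin-like protein, Rsad2 (-1.78 ± 0.49), an antiviral enzyme, and the transcription factors Irf1 (-1.06 ± 0.27) and Irf7 (-1.60 ± 0.48). The summed level of the list was 761, 534, 213 and 375 CPM. T cells, a source of interferon gamma, were most numerous in control replicate 1, and their part was not tested. The list of 8 NF-kB response genes had a median of -0.27 with 0 called, and the 8 immediate early and heat shock genes a median of -0.99 with 0 called. Outside macrophages the interferon response list had medians of 0.54 in SGC (7 genes tested), -0.22 in endothelial cells and -0.32 in fibroblasts, with 0 called in each.

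Cxcl12 in macrophages had a log2 fold change of -2.72 ± 1.04 (edgeR adjusted p = 0.582), but 82 of the 92 UMIs of control replicate 1 were in 1 cell, which also showed 5 of the 8 fibroblast markers. Its levels were 109, 3.61, 4.93 and 21.0 CPM, and control replicate 1 was at 11.9 CPM without that cell. Leaving out control replicate 1 turned the direction (1.58), and leaving out control or injury replicate 2 gave calls (-3.47 and -3.77). Cxcl2 (-0.26 ± 0.51), Cxcl16 (-0.16 ± 0.38), Cxcl14 (0.84 ± 0.51) and Cxcl1 (0.68 ± 0.51) had edgeR adjusted p values from 0.716 to 0.972. Cxcl14 had its higher level in injury replicate 1, and injury replicate 2 lay between the control libraries.

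**Figure D3:**
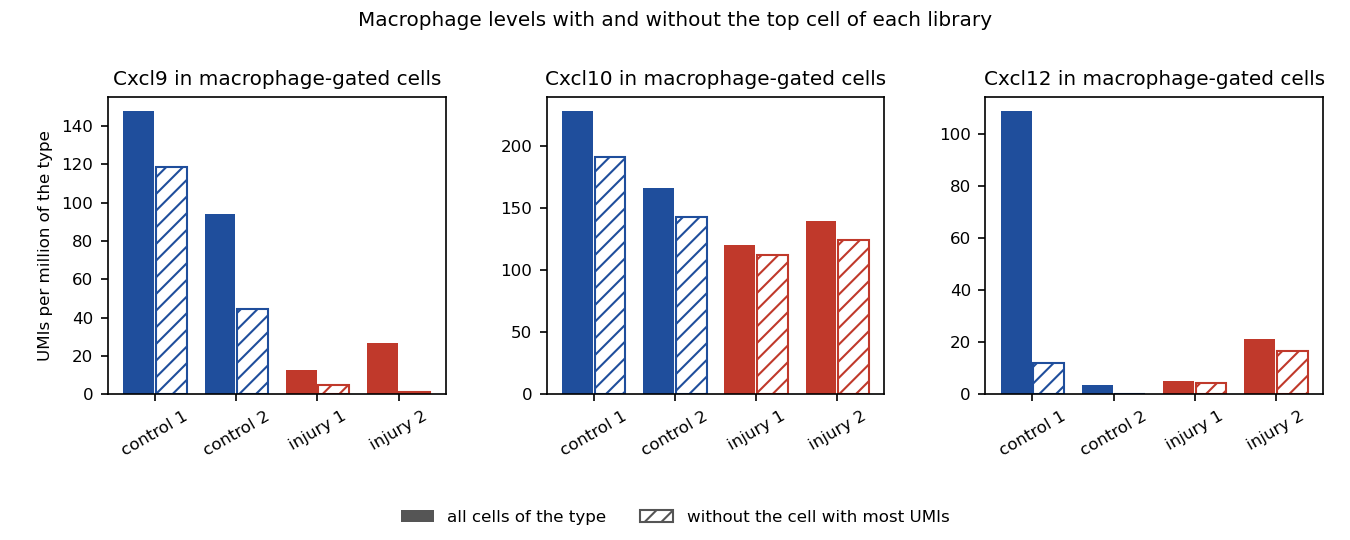
Cxcl9, Cxcl10 and Cxcl12 in macrophage-gated cells of each library, in CPM (y axis from 0). Solid bars use all cells and hatched bars leave out the cell with most UMIs of that gene, blue for control and red for injury. Cxcl9 stays lower in both injury libraries without the top cell, and the high Cxcl12 bar of control replicate 1 falls from 109 to 11.9 CPM.

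In endothelial cells Cxcl1 was higher in both injury libraries (84.4 and 44.2 CPM against 29.5 and 17.2 CPM), with a log2 fold change of 1.69 ± 0.48. It did not pass the test in the main fit (edgeR adjusted p = 1.00), and the adjusted p was lower in at least 1 fit without 1 library. Over 13 alternatives this Cxcl1 value ran from 1.12 to 2.17, with no change of direction and no call. Cxcl12 (0.16 ± 0.26), Cx3cl1 (-0.42 ± 0.32) and Cxcl10 (-0.26 ± 0.63) were within 2 SE of 0. In fibroblasts the 8 tested chemokines ranged from -1.08 ± 0.53 (Cxcl9) to 0.95 ± 0.62 (Cxcl2), all with edgeR adjusted p = 1.00. Among them Cxcl14 was at -0.78 ± 0.48, Cxcl10 at -0.59 ± 0.35, Cxcl1 at 0.27 ± 0.74, Cx3cl1 at 0.30 ± 0.35, Cxcl12 at 0.32 ± 0.28 and Cxcl16 at 0.66 ± 0.36. Leaving out 1 library moved several of these, and Cxcl1 ran from -0.87 to 1.603, with a change of direction. Cxcl2 ran from 0.073 without injury replicate 1 to 1.99 without control replicate 1. Cxcl9 ran from -1.97 without injury replicate 1 to -0.48 without control replicate 1, and it was at -1.52 without control replicate 2. Cxcl14 ran from -1.51 without injury replicate 2 to -0.15 without control replicate 2, and it was at -1.19 without control replicate 1. Cxcl16 ran from 0.090 without injury replicate 1 to 1.07 without injury replicate 2. None of these reached a log2 fold change of 2, so none could be called at any adjusted p. For Cxcl1, Cxcl2, Cxcl9 and Cxcl14 the adjusted p was below that of the main fit in some fits without 1 library. In SGC, Cxcl10 was at 0.27 ± 0.31 and Cxcl1 at 2.11 ± 1.47 (edgeR adjusted p = 1.00 for both). The latter compares 2 UMIs in control with 18 after injury, of which 14 were in 1 cell that also showed 6 of the 8 fibroblast markers.

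**Figure D4:**
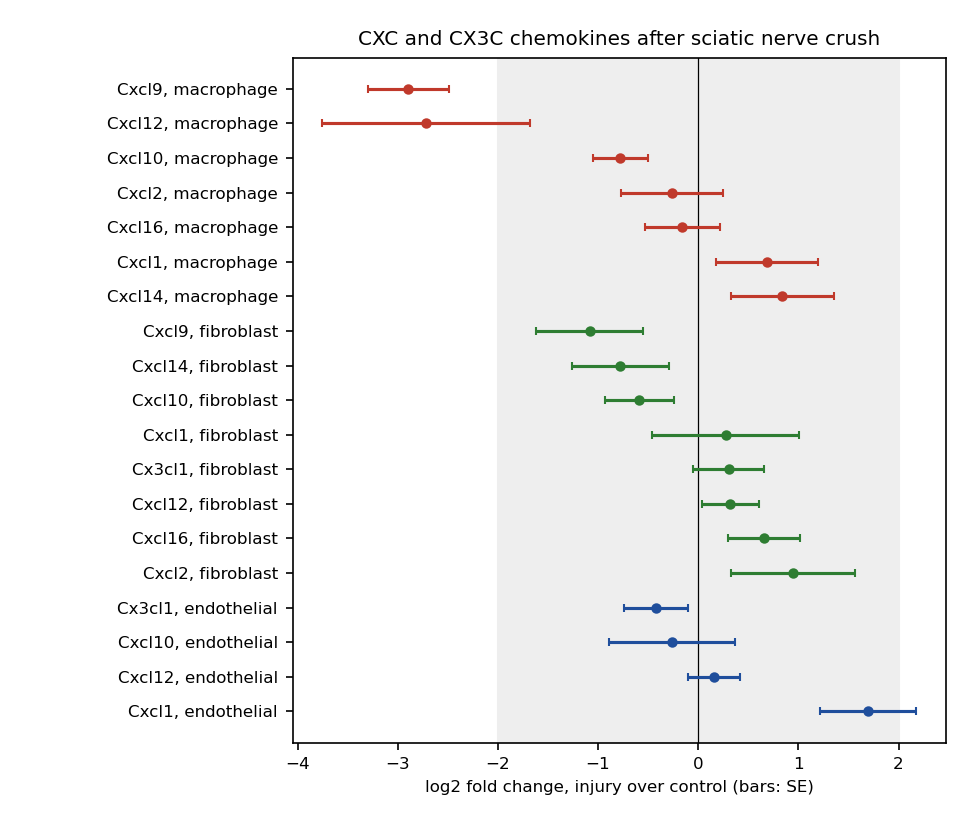
Log2 fold change of each tested chemokine after injury (x axis) in macrophages (red), fibroblasts (green) and endothelial cells (blue), with bars of 1 SE. The grey band spans -2 to 2, inside which no value could be called. Cxcl9 and Cxcl12 in macrophages lie outside it, and neither passed the adjusted p.

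Whether an injury effect differed between macrophages and another type was tested by an interaction term in 1 fit. No chemokine passed in endothelial cells, SGC or fibroblasts. The log2 difference from macrophages was 5.76 ± 1.597 for Cxcl9 in endothelial cells, where all 15 UMIs after injury were in 1 cell. It was 3.02 ± 0.98 for Cxcl12 in fibroblasts, set against the macrophage value with 82 UMIs in 1 cell (edgeR adjusted p = 1.00 for both). Over all cells Cxcl2 was at 584, 96.9, 942 and 227 CPM and Cxcl16 at 173, 46.1, 220 and 89.1 CPM, and both ranked the libraries as the number of macrophages did (250, 76, 493 and 199). Cxcl12 was at 163, 212, 157 and 160.3 CPM.

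Related genes of the pathway were read from lists of receptors, atypical receptors, proteases that cut these chemokines and other CXC ligands. Of 7 receptor genes, 4 could be tested over all cells after injury and 0 were called, as were 0 of 2 atypical receptors, 0 of 3 proteases and 0 of 2 testable other CXC ligands. Among the other ligands Pf4, the platelet factor also made by macrophages, stood at 3197, 1845, 2354 and 2479 CPM in macrophages (log2 enrichment 9.04 ± 0.22). Cxcl5 reached 4.69 ± 3.88 CPM in connective tissue fibroblasts and Cxcl3 1.53 ± 1.54 CPM in macrophages. Cxcl11 was not analysed here.

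The genes whose levels were most alike over the 46 sums of a library and type (Pearson correlation of log2 of CPM + 10, among 13692 genes) were Fcgr4 (0.90), C5ar1 (0.90) and Cd33 (0.89) for Cxcl2, and Steap4 (0.87), Meox2 (0.86) and Mgp (0.86) for Cxcl1. For Cxcl12 they were Tm4sf1 (0.90), Igfbp7 (0.90) and Tfpi (0.87), and for Cx3cl1 Abcb1a (0.92), Cdh5 (0.91) and Crispld1 (0.90). Cxcl16 was most like Dab2 (0.86), 5430435G22Rik (0.85) and Hpgd (0.83). Cxcl14 was most like Fndc1 (0.78), Mmp2 (0.77) and Igf1 (0.75), Cxcl10 like Rgl1 (0.80), Sepp1 (0.79) and Cttnbp2nl (0.79), and Cxcl9 like Cyp27a1 (0.82), G530011O06Rik (0.80) and Asgr2 (0.78). Cxcl13, where 1 cell decides the value, was most like Il1a (0.76), Il10 (0.68) and Slc37a2 (0.59). Marker genes used to assign the types were left in. Cdh5 is one of the endothelial markers, so its likeness to Cx3cl1 is partly built in. The sums also share libraries and differ in depth, so these are descriptions.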

How the data were processed

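The authors aligned reads to mm10 with Cell Ranger 2.1.0 and deposited raw UMI count matrices with gene and barcode tables. Barcodes with at least 600 UMIs, at least 500 genes and under 10% mitochondrial UMIs were kept. The upper limits of the study (15000 UMIs, 4000 genes) left 6095 cells and would have removed 161 of 227 neurons, so they were an alternative. A cell took the type with the most detected markers (at least 3 of 8, leading by 2). Scrublet marked 37 barcodes (0.530%) as doublets, which were kept. Counts were summed by library and type, and injury was compared with control by quasi-likelihood tests in edgeR 4.0.16 (TMM, filterByExpr, Benjamini-Hochberg over all genes of the fit), with DESeq2 1.42.0 as an alternative. SE is the log2 fold change over the square root of the F statistic. Enrichment compared each type with the mean of the log2 levels of the others, over sums of at least 10 cells. Types with few UMIs pull that mean down, so the fold is larger than over the mean CPM of the others. Thinned shares are the expected share with a UMI at 1000 UMIs per cell, with cells under 1000 UMIs left out. All 9 genes were measured in every type, with pathway genes by list and the 3 most correlated genes. Fold changes after injury are printed for macrophages, fibroblasts, endothelial cells and SGC. A further 13, in neutrophils, smooth muscle, neurons and over all cells, are left out. Of those, 11 changed direction under some alternative and 0 were called under any. The members and lists were chosen with earlier results of these data known. The tests were tried on simulated counts. Replicate numbers come from the sample titles, which do not say that equal numbers share a batch, and p-values measure the spread between 2 libraries a group. Binomial intervals are exact (Clopper-Pearson) and, like the limits for a count of 0 (3 UMIs), cover counting error only. Python 3.11.15 with scanpy 1.11.5 and R 4.3.3 were used. The value of 1 listed pathway gene is not reported here.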

Additional observations from a re-analysis of the deposited data

How the results depend on the processing

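No chemokine was called higher after injury in a type, and none in either direction over all cells, under any alternative run. The 0 called lower became 1 with DESeq2, 2 without the filter on low counts, 1 with a replicate block and 1 to 2 when each library was left out in turn, where the lone library of a group is assumed to vary like the other group. These were Cxcl9 and, where 2 were called, also Cxcl12, both in macrophages. With the replicate block the Cxcl9 value was -2.94 (edgeR adjusted p = 0.0398) and 11 genes were called higher and 10 lower in macrophages. Same-numbered libraries deviated together (correlations of 0.48 over all cells, 0.34 in macrophages, 0.41 in fibroblasts, 0.19 in SGC and 0.25 in endothelial cells), but with 2 pairs this does not show that the numbers pair the libraries. Tests of a difference between types gave 3 calls without the filter and 0 otherwise. Enrichment gave 24 calls, and 20 to 29 under the alternatives.

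Directions turned for Cxcl1 in SGC with DESeq2 (-0.14) and for Cxcl10 in endothelial cells with the replicate block (0.0020). When each library was left out, log2 fold changes ran from -1.20 to 6.15 for Cxcl1 and -9.2e-05 to 1.29 for Cxcl10 in SGC. In macrophages they ran from -0.11 to 1.16 for Cxcl1, -1.10 to 0.28 for Cxcl2, -3.77 to 1.58 for Cxcl12 and -0.67 to 0.24 for Cxcl16. In endothelial cells they ran from -1.21 to 1.21 for Cxcl10 and -0.023 to 0.40 for Cxcl12, and in fibroblasts from -0.87 to 1.603 for Cxcl1 and -0.086 to 0.64 for Cxcl12. The cause was not tested.

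Thinning to 1000 UMIs lowers the expected detection in each cell by construction, and cells under 1000 UMIs were left out. The share of cells with a UMI fell to 50.6% for Cxcl2 and 37.6% for Cxcl16 in macrophages. It fell to 54.7% for Cxcl12 and 6.26% for Cx3cl1 in endothelial cells, 7.69% for Cxcl10 in SGC and 4.82% for Cxcl14 in fibroblasts. Cxcl9 and Cxcl13 had the fewest cells with a UMI of the CXC members, 88 and 11.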
